A study of Homo sapiens with 6 samples.

Results

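The 6 transcripts described here encode the KMT2 and SETD1 histone methyltransferases, KMT2A, KMT2B, KMT2C, KMT2D, SETD1A and SETD1B. Their sites were taken as all deposited binding sites with a midpoint inside a fixed hg19 span of the gene, on the strand of the gene. This gave 2273 sites of 464799 in the 6 lists of the series. The spans were chosen with site numbers in view, since KMT2D lies in the densest 50 kb window of 3 libraries, so the numbers of sites below are a description and carry no test. The spans were chromosome 11 from 118307205 to 118397539 (plus strand) for KMT2A, chromosome 19 from 36208921 to 36229779 (plus) for KMT2B, chromosome 7 from 151832010 to 152133090 (minus) for KMT2C, chromosome 12 from 49412758 to 49453557 (minus) for KMT2D, chromosome 16 from 30968615 to 30995981 (plus) for SETD1A, and chromosome 12 from 122242638 to 122270562 (plus) for SETD1B.

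The lists come from PAR-CLIP, in which 4-thiouridine built into cellular RNA is crosslinked by ultraviolet light to a bound protein and the RNA recovered with that protein is sequenced. Each library came from a stable FlpIn T-REx HEK293 line, an established human embryonic kidney line, that carried a doxycycline-inducible FLAG-HA transgene, was given 1 µg/ml doxycycline and 100 µM 4-thiouridine for 16 h, and was precipitated through FLAG. The proteins were FMR1 isoform 7 with I304N (I304N iso7), FMR1 isoform 1 with I304N (I304N iso1), FXR1, FXR2, wild-type FMR1 isoform 7 (wt iso7) and wild-type FMR1 isoform 1 (wt iso1). FMR1 is the RNA-binding protein lost in fragile X syndrome, FXR1 and FXR2 are its paralogs, and I304N replaces a residue of a KH domain, one of the RNA-contacting folds of FMR1. There was 1 library of each, so no value has a replicate error, the isoforms are not replicates of each other, and intervals are 95% intervals that cover counting error only. The tagged proteins came from transgenes, and the labels do not say that the endogenous proteins were removed. The number of sites in a transcript also depends on how much of that transcript the cells hold, which was not measured in these lists.

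KMT2 and SETD1 enzymes place methyl groups on lysine 4 of histone H3 through a SET domain, and each works in a complex of the COMPASS family. SETD1A and SETD1B carry out much of the trimethylation at active promoters. KMT2A and KMT2B, the relatives of fly Trithorax, act at promoters of developmental genes, and KMT2C and KMT2D monomethylate enhancers. KMT2A is the MLL gene broken by leukemia translocations, and KMT2D is the main gene of Kabuki syndrome. Transcripts of chromatin regulators are among the known targets of FMR1 in brain. The older names MLL2 and MLL4 have been used for both KMT2B and KMT2D, and positions rather than those names were used here.

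All 6 encode long mRNAs. In the reference transcripts (GENCODE release 29, longest coding transcript of each gene) the lengths were 16628 nt for KMT2A, 8469 nt for KMT2B, 16862 nt for KMT2C, 19419 nt for KMT2D, 6451 nt for SETD1A and 8185 nt for SETD1B, against a median of 2943 nt over 19499 genes. KMT2D was longer than 99.8% of these genes and SETD1A longer than 87.4%. The 6 fell into a pair with few G and C bases, KMT2C at 45.0% and KMT2A at 46.9%, and 4 with many, KMT2D at 59.1%, SETD1B at 61.3%, SETD1A at 62.4% and KMT2B at 63.5%. The median over all genes was 49.4%.

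Short elements that have been linked to FMR1 binding, ACTT and ACTG on one hand and AGGA and TGGA on the other, were counted in these transcripts on the transcribed strand, with overlapping matches each counted. ACTT and ACTG together occurred 9.49 times per kb in KMT2C and 9.02 times in KMT2A, near the median of all genes, 8.67 per kb. In KMT2D and KMT2B they occurred 6.59 and 6.26 times, above 21.4% and 18.0% of genes. SETD1B and SETD1A had only 4.89 and 4.81 per kb, which is above no more than 7.43% and 7.01% of genes. AGGA and TGGA together occurred 17.8 times per kb in SETD1B and 17.2 times in SETD1A, more than in 87.7% and 84.7% of genes. They occurred 16.5 times in KMT2B, 15.5 times in KMT2C, 14.7 times in KMT2D and 13.8 times in KMT2A, against a median of 13.2 per kb. The stretches of 60 coding bases that hold most of these elements are printed to show how the letters differ among the 6, with the elements in capitals and bases in lower case between them. They were chosen by element number in the reference transcript, and where they lie relative to the binding sites was not analysed.
SETD1B, coding bases 3123 to 3182, 11 elements: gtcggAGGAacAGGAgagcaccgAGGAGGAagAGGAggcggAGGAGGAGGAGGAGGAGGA
SETD1A, coding bases 2925 to 2984, 7 elements: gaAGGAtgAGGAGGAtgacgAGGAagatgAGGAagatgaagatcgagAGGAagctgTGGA
KMT2D, coding bases 5289 to 5348, 7 elements: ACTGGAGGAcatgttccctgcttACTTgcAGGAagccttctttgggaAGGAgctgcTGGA
KMT2B, coding bases 5919 to 5978, 7 elements: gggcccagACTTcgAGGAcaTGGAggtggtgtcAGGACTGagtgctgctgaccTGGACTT
KMT2A, coding bases 2898 to 2957, 7 elements: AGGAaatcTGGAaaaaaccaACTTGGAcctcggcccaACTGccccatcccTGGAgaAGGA
KMT2C, coding bases 2154 to 2213, 6 elements: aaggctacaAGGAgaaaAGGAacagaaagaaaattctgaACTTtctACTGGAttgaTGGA
The SETD1A and SETD1B stretches hold AGGA or TGGA and neither ACTT nor ACTG, whereas each KMT2 stretch holds both kinds. Of 545701 stretches of 60 bases tiled over all coding sequences, 74.5% hold at least 1 element, 0.463% at least 6, 0.136% at least 7 and 0.00715% at least 11. These tiles lie at fixed positions, whereas each printed stretch is the highest of its coding sequence. The shares therefore do not say how often the highest stretch of a gene reaches these numbers. A match is a description of the letters and not a binding site.

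The deposited sites followed the strand of these genes. Over all libraries 2273 sites lay on the sense strand of the 6 spans and 1 on the antisense strand, an FXR1 site in KMT2C. Within 20 kb outside the spans on the same strand there was no site next to KMT2A or KMT2C, 1 next to SETD1B, 9 next to KMT2B, 20 next to KMT2D and 59 next to SETD1A. Upstream of SETD1A there were 11 in I304N iso7, 25 in I304N iso1, 0 in FXR1, 5 in FXR2, 16 in wt iso7 and 1 in wt iso1, so that this stretch, like SETD1A itself, had fewest of the FMR1 libraries in wt iso1. The SETD1B span of the rule is 27925 nt long and the RefSeq gene on the later build 42502 nt, so part of that gene may lie outside the span.

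KMT2D, the enhancer methyltransferase, had the most sites of the 6 in every library. Its span held 227 sites in I304N iso7, 218 in I304N iso1, 9 in FXR1, 71 in FXR2, 218 in wt iso7 and 173 in wt iso1. Per 100000 sites of each list this was 256 (224 to 292) in I304N iso7, 165 (144 to 188) in I304N iso1, 99.8 (45.6 to 190) in FXR1, 206 (161 to 259) in FXR2, 278 (242 to 317) in wt iso7 and 142 (122 to 165) in wt iso1. The values of both isoform 7 libraries and of FXR2 lay above those of the other 3 libraries, and the interval of FXR1 met those of FXR2 and of both isoform 1 libraries but not those of the isoform 7 libraries. Per kb of reference transcript, KMT2D and KMT2B were alike in site density: KMT2D had 11.7 and KMT2B 12.3 sites per kb in I304N iso7, 11.2 and 12.9 in I304N iso1, 3.66 and 3.42 in FXR2, and 8.91 and 7.44 in wt iso1. Only wt iso7, with 11.2 against 8.62, placed KMT2D well above KMT2B among the FMR1 libraries, and the intervals there (9.79 to 12.8 and 6.76 to 10.8) still met.

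KMT2B, the other Trithorax relative, had 104 sites in I304N iso7, 109 in I304N iso1, 1 in FXR1, 29 in FXR2, 73 in wt iso7 and 63 in wt iso1. Scaled to 100000 sites of the list this was 117 in I304N iso7, 82.4 in I304N iso1, 11.1 in FXR1, 84.0 in FXR2, 93.0 in wt iso7 and 51.7 in wt iso1. I304N iso7 was highest and, among the FMR1 libraries, wt iso1 lowest. In I304N iso7, covered bases came to 54.0% of the KMT2B and 53.6% of the KMT2D reference transcript length. For I304N iso1 these were 53.6% and 50.5%. The covered length was 29.8% of KMT2B in wt iso7 and 24.5% in wt iso1, and 38.1% and 31.1% of KMT2D in these libraries. These percentages divide all covered bases of the span, introns included, by the mature length, and the KMT2B and KMT2D reference transcripts start at the coding sequence.

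KMT2A had 41 sites in I304N iso7, 121 in I304N iso1, 2 in FXR1, 28 in FXR2, 98 in wt iso7 and 137 in wt iso1. The scaled values were 46.3 (33.2 to 62.8) in I304N iso7, 91.5 (75.9 to 109) in I304N iso1, 22.2 (2.69 to 80.1) in FXR1, 81.1 (53.9 to 117) in FXR2, 124.8 (101 to 152) in wt iso7 and 112 (94.4 to 133) in wt iso1. Both wild-type libraries stood above the I304N libraries, although the intervals of I304N iso1 met theirs. KMT2C, the other enhancer methyltransferase, had 11 in I304N iso7, 38 in I304N iso1, 1 in FXR1, 6 in FXR2, 43 in wt iso7 and 71 in wt iso1. Its scaled values were 12.4 in I304N iso7, 28.7 in I304N iso1, 11.1 in FXR1, 17.4 in FXR2, 54.8 in wt iso7 and 58.2 in wt iso1, with both wild-type libraries highest. Per kb of transcript KMT2C was the sparsest of the 6 in I304N iso7, I304N iso1 and FXR2, at 0.652, 2.25 and 0.356 sites, and in wt iso7, at 2.55. In wt iso1 it had 4.21 sites per kb, above SETD1B at 2.08 and SETD1A at 3.72. Segments of KMT2C have near-identical copies elsewhere in the genome, and how reads with several matches were treated is not stated in the labels, so its counts are uncertain.

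SETD1A and SETD1B had similar site numbers in every FMR1 library. SETD1A had 48 sites in I304N iso7, 67 in I304N iso1, 0 in FXR1, 13 in FXR2, 42 in wt iso7 and 24 in wt iso1. SETD1B had 49 in I304N iso7, 66 in I304N iso1, 0 in FXR1, 5 in FXR2, 50 in wt iso7 and 17 in wt iso1. Scaled, wt iso1 was far below the other 3 FMR1 libraries for both, at 19.7 (12.6 to 29.3) for SETD1A and 14.0 (8.12 to 22.3) for SETD1B, while those 3 lay from 50.7 to 54.2 for SETD1A and from 49.9 to 63.7 for SETD1B.

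**Figure D1:**
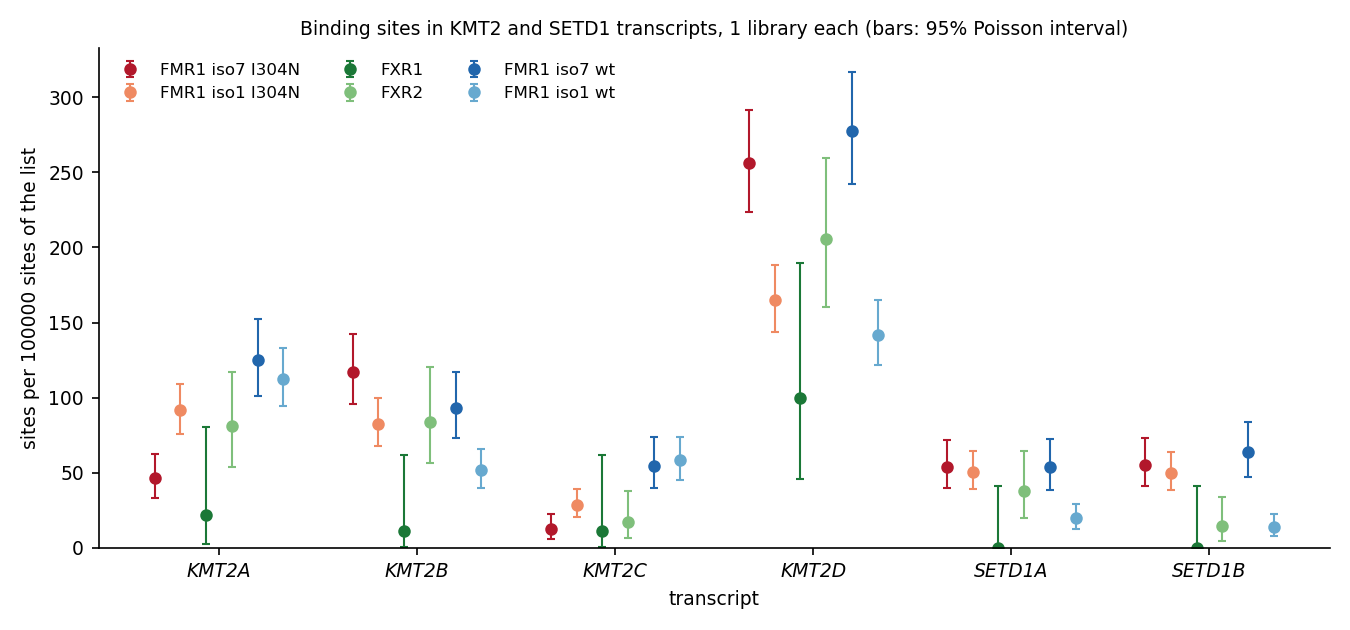
Sites per 100000 sites of the list (y axis) in each of the 6 transcripts (x axis), 1 point per library with its 95% Poisson interval. KMT2D has the highest point of each library, from 99.8 in FXR1 to 278 in wt iso7, and wt iso1 is the lowest FMR1 library in KMT2B, KMT2D, SETD1A and SETD1B but not in KMT2A or KMT2C.

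In the comparison of I304N with the wild type, the G and C poor pair had the lowest ratios in each isoform, although in isoform 1 the intervals of KMT2A and KMT2D met. KMT2C had a scaled ratio of I304N over wild type of 0.23 (0.11 to 0.45) in isoform 7 and of 0.49 (0.32 to 0.74) in isoform 1. KMT2A had 0.37 (0.25 to 0.54) in isoform 7 and 0.81 (0.63 to 1.05) in isoform 1. KMT2D lay near 1, at 0.92 (0.76 to 1.12) in isoform 7 and 1.16 (0.95 to 1.43) in isoform 1, intervals that include 1, and KMT2B a little above, at 1.26 (0.93 to 1.73) in isoform 7 and 1.60 (1.16 to 2.21) in isoform 1. The SETD1 transcripts had higher ratios in isoform 1 than in isoform 7, a difference that was not tested. SETD1A was at 1.01 (0.65 to 1.57) and SETD1B at 0.87 (0.57 to 1.31) in isoform 7, against 2.57 (1.59 to 4.29) and 3.58 (2.08 to 6.51) in isoform 1.

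A 2-fold change was used as the limit, and the same limit was applied to strand-specific 50 kb windows of the whole genome with at least 10 sites in the libraries compared. In isoform 7, 2 of 6 transcripts were at least 2-fold lower in I304N, KMT2A and KMT2C, where 15.8% of 4200 windows were, and none was at least 2-fold higher, where 25.6% of windows were. In isoform 1, 2 of 6 were at least 2-fold higher, SETD1A and SETD1B, where 28.9% of 6018 windows were, and 1 was at least 2-fold lower, KMT2C, where 23.2% of windows were. These shares depend on the windows taken. With at least 50 sites per window, 5.24% of 687 windows were at least 2-fold lower in isoform 7, and in isoform 1 12.5% of 1373 were at least 2-fold higher and 27.1% at least 2-fold lower. The median ratio was 0.895 over the 6 transcripts and 1.14 over the windows in isoform 7, and 1.38 and 0.999 in isoform 1. The isoform 1 values of the SETD1 pair depended on how closely spaced sites were counted: with sites within 50 nt joined, the ratio was 1.16 for SETD1A and 1.78 for SETD1B. KMT2A in isoform 7 was then at 0.51, and the only transcript still past 2-fold in either isoform was KMT2C in isoform 7, at 0.26. With median-of-ratios scaling all I304N ratios were raised, by 0.30 in isoform 7 and 0.64 in isoform 1 on the log2 scale; KMT2A in isoform 1 then stood at 1.27 and KMT2D in isoform 7 at 1.13 and SETD1B in isoform 7 at 1.07, on the other side of 1, and KMT2C in isoform 1 at 0.77. With nearby sites joined, KMT2B in isoform 1 was at 0.99 and KMT2D in isoform 1 at 0.84, also on the other side of 1, beside KMT2A at 0.82. KMT2B in isoform 1 passed 2-fold with covered nucleotides, at 2.12, and with median-of-ratios scaling, at 2.48.

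The other sites of each chromosome were compared in the same way. KMT2B lies on chromosome 19, whose other sites had a ratio of 1.60 in isoform 7 and 1.66 in isoform 1, at or above the KMT2B ratios of 1.26 and 1.60. Chromosome 16 without SETD1A was at 0.96 in isoform 7 and 1.62 in isoform 1, beside SETD1A ratios of 1.01 and 2.57. The remaining sites of chromosome 12 were at 0.87 and 0.85, below SETD1B in isoform 1. For KMT2C the rest of chromosome 7 had 1.23 and 0.95, and for KMT2A the rest of chromosome 11 had 1.03 and 1.07, in both cases above the ratio of the transcript.

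**Figure D2:**
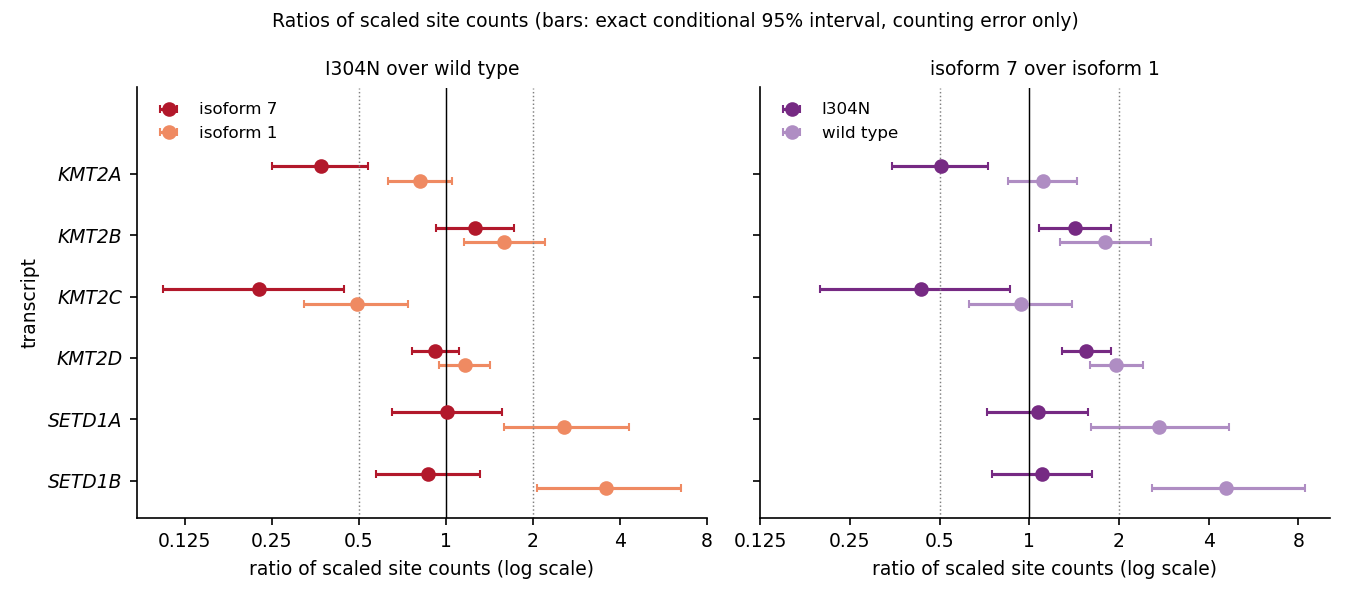
Ratio of scaled site counts (x axis, log scale) for each transcript, I304N over wild type at left and isoform 7 over isoform 1 at right, with exact conditional 95% intervals and dotted lines at 2-fold. KMT2A and KMT2C lie below 1 in both I304N comparisons, though KMT2A in isoform 1 moves to 1.27 with median-of-ratios scaling, and the SETD1 pair stands above 2 only in the comparisons with wt iso1 as denominator.

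The ratios were also set beside base composition. Ordered by G and C content, KMT2C and KMT2A came first and had the lowest I304N ratios of the 6 in both isoforms, and the 4 transcripts between 59.1% and 63.5% had 0.87 to 1.26 in isoform 7 and 1.16 to 3.58 in isoform 1. Within those 4, the ratio did not follow G and C content in isoform 1, where SETD1B at 61.3% had the highest ratio and KMT2B at 63.5% the lowest but KMT2D. KMT2C and KMT2A also had the smallest exonic share of the gene, 5.6% and 18.4%, and the longest spans, 301081 and 90335 nt. These features cannot be told apart from base composition here. The part of base composition in the ratios was not tested, and with 6 transcripts in a pair and a group of 4 no correlation is given.

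**Figure D3:**
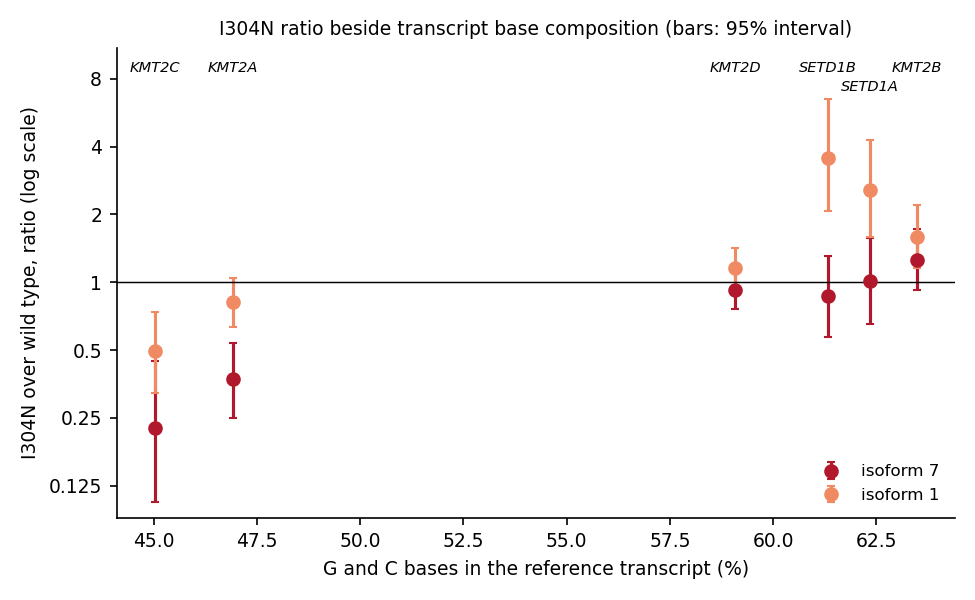
I304N over wild-type ratio (y axis, log scale, 95% intervals) beside the percentage of G and C bases in the reference transcript (x axis), 1 point per transcript and isoform. KMT2C and KMT2A, at 45.0% and 46.9%, have the lowest points of each isoform.

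Isoform 7 lacks part of the isoform 1 sequence through splicing. In the wild type, SETD1B had 63.7 sites per 100000 with isoform 7 and 14.0 with isoform 1, a ratio of 4.57 (2.59 to 8.45), and SETD1A had 53.5 and 19.7, a ratio of 2.72 (1.61 to 4.69). Further ratios were 1.96 (1.60 to 2.40) for KMT2D, 1.80 (1.27 to 2.56) for KMT2B, 1.11 (0.85 to 1.45) for KMT2A and 0.94 (0.63 to 1.39) for KMT2C. At least 2-fold higher values in isoform 7 were thus seen in 2 of 6 transcripts, where 16.6% of 4701 windows were that high, and at least 2-fold lower values in none, where 29.7% of windows were that low. Of windows with at least 50 sites, 7.93% of 996 were that high. The median was 1.88 over the 6 and 0.828 over the windows.

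With I304N, isoform 7 over isoform 1 gave 1.07 (0.72 to 1.57) for SETD1A and 1.11 (0.75 to 1.63) for SETD1B, while KMT2D was at 1.55 (1.28 to 1.88) and KMT2B at 1.42 (1.08 to 1.88). KMT2A had 0.51 (0.35 to 0.73) and KMT2C 0.43 (0.20 to 0.86). Of the 6 only KMT2C was at least 2-fold lower, where 17.1% of 5445 windows were, and none was at least 2-fold higher, where 6.21% were. Of windows with at least 50 sites, 2.19% of 1096 were at least 2-fold lower. KMT2D and KMT2B were therefore denser in isoform 7 in both forms, by 1.42 to 1.96 times, with intervals above 1. With nearby sites joined SETD1A no longer passed the limit in the wild type, at 1.67, SETD1B was at 2.56 and KMT2D at 1.22. With median-of-ratios scaling, which raised all wild-type ratios by 0.60 on the log2 scale, KMT2C was above 1, at 1.42. Chromosome 12 without KMT2D was at 0.92 with I304N and 0.90 in the wild type, below KMT2D in both. Chromosome 19 without KMT2B was also above 1, at 1.24 with I304N and 1.29 in the wild type, near the KMT2B value with I304N, and chromosome 16 without SETD1A was at 1.65 in the wild type.

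FXR2 was set beside each wild-type isoform, and both comparisons, like those of FXR1, share these FMR1 libraries. KMT2C was at least 2-fold lower in FXR2 in both, with 17.4 sites per 100000 against 54.8 in wt iso7 (ratio 0.32, 0.11 to 0.75) and 58.2 in wt iso1 (0.30, 0.11 to 0.68). SETD1B had 14.5 in FXR2 against 63.7 in wt iso7, a ratio of 0.23 (0.07 to 0.57), but 14.0 in wt iso1, a ratio of 1.04 (0.30 to 2.93). KMT2D had a ratio of 0.74 (0.56 to 0.97) to isoform 7 and 1.45 (1.08 to 1.92) to isoform 1, but with nearby sites joined its ratio to isoform 7 was 1.18, on the other side of 1. At least 2-fold lower values were found in 2 of 6 transcripts against isoform 7 and 1 of 6 against isoform 1, where 21.2% of 3006 and 21.4% of 3914 windows were that low. None was at least 2-fold higher, where 21.7% and 11.1% of windows were. Of windows with at least 50 sites, 11.9% of 303 were at least 2-fold below isoform 7 and 14.9% of 759 below isoform 1. Under median-of-ratios scaling, which lowered all ratios to isoform 7 by 0.69 on the log2 scale, 5 of 6 were at least 2-fold below isoform 7.

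FXR1 had the shortest list, and 9 of its 13 sites in the 6 transcripts lay in KMT2D. KMT2D had 99.8 sites per 100000 in FXR1, against 278 in wt iso7 (ratio 0.36, 0.16 to 0.69) and 142 in wt iso1 (0.70, 0.32 to 1.37). KMT2A with 2 sites had ratios of 0.18 (0.02 to 0.66) to isoform 7 and 0.20 (0.02 to 0.73) to isoform 1. KMT2B had 1 site and ratios of 0.12 (0.0030 to 0.69) to isoform 7 and 0.21 (0.0053 to 1.24) to isoform 1. KMT2C had 1 site and ratios of 0.20 (0.0050 to 1.19) to wt iso7 and 0.19 (0.0048 to 1.10) to wt iso1, whose intervals include 1. With nearby sites joined KMT2D was at 0.61 of isoform 7, inside the 2-fold limit. No FXR1 site in SETD1A or SETD1B allows up to 40.9 sites per 100000 (upper 95% limit), above the level of wt iso1, so a difference from that library was not detectable at this depth. With 0 replaced by 3 sites, or 33.3 per 100000, the density was 1.61-fold lower than in wt iso7 in SETD1A and 1.91-fold lower in SETD1B. The 95% intervals of the ratio reach up to 0.80 and 0.67, so smaller differences are possible. At least 2-fold lower values than in isoform 7 were found in 4 of 6 and than in isoform 1 in 3 of 6, where 9.64% of 2302 and 7.78% of 3458 windows were that low, and none was at least 2-fold above, where 20.3% and 12.6% were. For these calls a count of 0 stood as 3 sites and counts of 1 and 2 as they were, so that a transcript or window with 1 site can pass where one with 0 does not. Of windows with at least 50 sites, 33.9% of 174 were at least 2-fold below isoform 7 and 17.6% of 556 below isoform 1, and against isoform 1 only 1 of 6 transcripts, KMT2A, had an interval below 1. Against FXR2, 3 of 6 were at least 2-fold lower in FXR1, KMT2A, KMT2B and KMT2D, where 17.5% of 1145 windows were, at 0.27 (0.03 to 1.08), 0.13 (0.0032 to 0.80) and 0.49 (0.21 to 0.97), and none was at least 2-fold higher, where 14.6% were. Of windows with at least 50 sites, 2.99% of 67 were at least 2-fold lower. With nearby sites joined KMT2D was at 0.52 of FXR2, inside the limit.

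Sites lay in runs that left most of the span empty in KMT2A, KMT2C, SETD1A and SETD1B, but covered more than they left in KMT2B and KMT2D. Joined where gaps were at most 500 nt, the sites of all libraries formed 107 runs in the 6 spans. In KMT2C 39 runs covered 2.86% of the span, in KMT2A 28 runs covered 18.2%, in SETD1A 9 runs covered 24.7%, in SETD1B 10 runs covered 8091 nt of 27925 nt, in KMT2B 9 runs covered 58.2% and in KMT2D 12 runs covered 64.2%. This order is that of the share of the gene that is exonic in the reference transcripts, 5.6%, 18.4%, 23.6%, 28.8%, 40.6% and 53.4%. The exons of the files' build were not used, so no site is assigned to an exon, intron or untranslated region.

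KMT2D sites were spread along most of its span with gaps, and no library had more than 4 in the first of 10 equal parts. Its 3 runs with most sites held 69.2% of all KMT2D sites. The first, from 49430973 to 49438742 on chromosome 12, lay 14.8 kb from the 5′ end of the span and held 61 sites in I304N iso7, 60 in I304N iso1, 3 in FXR1, 25 in FXR2, 67 in wt iso7 and 55 in wt iso1. Next came the run from 49442453 to 49449133, nearer the 5′ end, with 54 in I304N iso7, 51 in I304N iso1, 1 in FXR1, 19 in FXR2, 40 in wt iso7 and 31 in wt iso1. A further run, from 49424079 to 49428718, had 43 in I304N iso7, 44 in I304N iso1, 3 in FXR1, 7 in FXR2, 42 in wt iso7 and 28 in wt iso1. Unscaled, the run from 49442453, the closest of them to the 5′ end, had fewer sites in the wild-type libraries than in the I304N libraries. In the run from 49430973 the unscaled counts of the 4 FMR1 libraries lay between 55 and 67. The FMR1 lists differ in length, from 78495 sites in wt iso7 to 132219 in I304N iso1. Counts of single runs were not scaled, so neither comparison is one of shares of the lists.

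KMT2A sites concentrated in the 3′ part. The run from 118373118 to 118377317 on chromosome 11, 65.9 kb from the 5′ end and 4200 nt long, held 30.9% of KMT2A sites, with 11 in I304N iso7, 35 in I304N iso1, 1 in FXR1, 8 in FXR2, 34 in wt iso7 and 43 in wt iso1. The run from 118392628 to 118394699 had 11 in I304N iso7, 18 in I304N iso1, 0 in FXR1, 9 in FXR2, 20 in wt iso7 and 22 in wt iso1. The run from 118342589 to 118344906 had 3 in I304N iso7, 14 in I304N iso1, 1 in FXR1, 6 in FXR2, 10 in wt iso7 and 18 in wt iso1. I304N iso7 had fewer sites than wt iso7 in each of these 3 runs, so the lower KMT2A count was seen in each of them. Part 10 of the span, cut into 10 equal parts from the 5′ end, held 36.6% of KMT2A sites in I304N iso7 (22.1 to 53.1), 27.3% in I304N iso1, 29.6% in wt iso7 and 29.2% in wt iso1.

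KMT2C sites lay mostly near the 3′ end. The last 2 of 10 equal parts of its span held 72.7% of its sites in I304N iso7, 78.9% in I304N iso1, 83.3% in FXR2, 95.3% in wt iso7 and 83.1% in wt iso1. Its run with most sites, from 151845238 to 151846152 on chromosome 7, held 3 sites in I304N iso7, 8 in I304N iso1, 0 in FXR1, 1 in FXR2, 4 in wt iso7 and 9 in wt iso1. In the next, from 151873477 to 151875089, there were 1 in I304N iso7, 4 in I304N iso1, 0 in FXR1, 0 in FXR2, 6 in wt iso7 and 11 in wt iso1. The run from 151833310 to 151834009, near the 3′ end, had 2 in I304N iso7, 2 in I304N iso1, 1 in FXR1, 2 in FXR2, 2 in wt iso7 and 4 in wt iso1. No library had more than 11 sites in any of these 3 runs.

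KMT2B sites ran along the span with gaps. The 3 runs with most sites were those from 36222820 to 36224767, from 36227590 to 36229634 at the 3′ end and from 36210403 to 36212622 near the 5′ end. The first held 20 sites in I304N iso7, 23 in I304N iso1, 0 in FXR1, 8 in FXR2, 17 in wt iso7 and 8 in wt iso1. The 5′ run held 21 in I304N iso7, 21 in I304N iso1, 0 in FXR1, 1 in FXR2, 8 in wt iso7 and 11 in wt iso1. It therefore had more sites in both I304N libraries than in either wild-type library, and a single FXR2 site, while the 3′ run had 18 in I304N iso7, 19 in I304N iso1, 0 in FXR1, 6 in FXR2, 14 in wt iso7 and 10 in wt iso1.

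SETD1A had no site in any library in parts 7 and 8 of 10 equal parts of its span, and SETD1B none in part 8. The SETD1A runs from 30975420 to 30977691, 30990595 to 30992497 and 30994983 to 30995920 held 72.7% of its sites. The first of them had 15 sites in I304N iso7, 22 in I304N iso1, 0 in FXR1, 5 in FXR2, 11 in wt iso7 and 7 in wt iso1. The SETD1B runs from 122260410 to 122261630, 122254946 to 122255807 and 122247549 to 122248713 had 5, 8 and 8 sites in I304N iso7, 13, 9 and 8 in I304N iso1, 11, 9 and 8 in wt iso7 and 2 each in wt iso1. The low count of SETD1B in wt iso1 was thus seen in each of its 3 main runs, and FXR2 had no site in any of them.

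**Figure D4:**
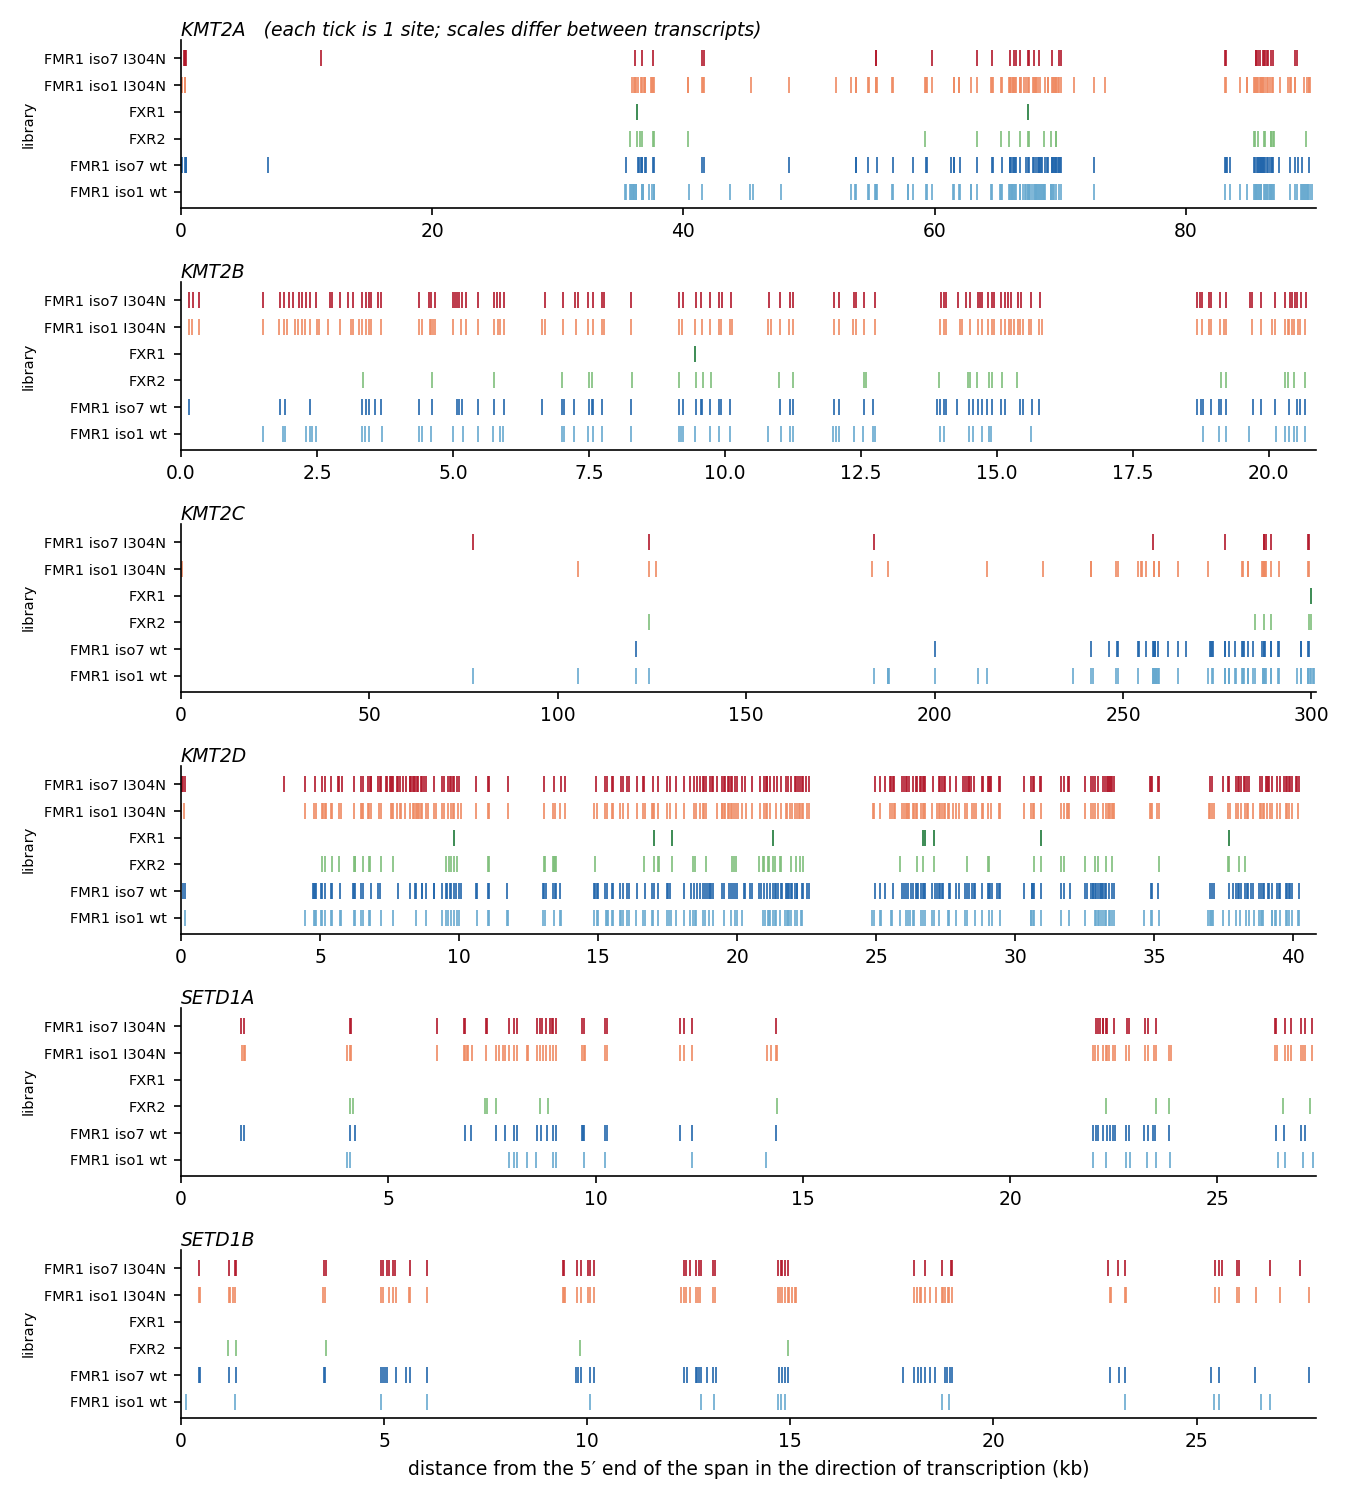
Position of each site (tick) along the 6 spans, as distance in kb from the 5′ end in the direction of transcription (x axis, scales differ), with 1 row per library. Many runs hold sites of several libraries, KMT2C sites crowd in the last 2 of 10 equal parts, and parts 7 and 8 of SETD1A are empty in every library.

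FXR2 sites in these transcripts met FMR1 sites at higher shares than in the whole FXR2 list, although on wt iso1 the interval included the share of the list. FXR2 sites met FXR1 sites less often in the 6 transcripts, at 7.89% (4.15 to 13.4), against 19.4% of the list. Sites of wt iso1 met FXR1 in 2.27% (1.14 to 4.02), against 4.90% of its list. The other FMR1 libraries had intervals that included the share of the list. These were 1.67% (0.72 to 3.26) against 1.83% in I304N iso7, 1.29% (0.56 to 2.53) against 1.88% in I304N iso1, and 1.72% (0.79 to 3.24) against 2.43% in wt iso7. Of 152 FXR2 sites, 140 overlapped a site of at least 1 FMR1 library by 1 nt or more on the same strand, 92.1% (86.6 to 95.8), against 75.8% of the whole FXR2 list. FXR2 sites lay on wt iso7 sites in 70.4% (62.5 to 77.5) against 32.1% of the list, and on wt iso1 sites in 69.7% (61.8 to 76.9) against 64.4%. In KMT2D 70 of 71 FXR2 sites met an FMR1 site, and in KMT2B 28 of 29. SETD1A had 9 of 13 and KMT2A 23 of 28. For FXR1 12 of 13 sites met an FMR1 site, 9 of them the 9 in KMT2D. That was 92.3% (64.0 to 99.8), an interval that includes the 74.6% of the whole FXR1 list. Sites in KMT2D and KMT2B were crowded and wide, and the part of this in the overlap was not tested. Among sites of up to 40 nt, 41.7% of FXR2 sites met wt iso7 and 47.0% wt iso1. The share of the list was not computed for sites of that width, so these values cannot be set against the list shares above.

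Among FMR1 libraries the highest share was that of I304N iso7 sites on I304N iso1, the longest list. Of I304N iso7 sites in the 6 transcripts, 87.1% (83.8 to 89.9) overlapped an I304N iso1 site, against 75.9% of the list. In the other direction 66.1% (62.2 to 69.8) did, against 50.0%. Sites of wt iso7 met I304N iso1 in 80.5% (76.9 to 83.8), against 66.35%, and sites of wt iso1 in 72.0% (67.7 to 75.9), against 44.6%. Since the shares differed with direction, no pair is called closest. I304N sites met wild-type sites of their isoform in 68.1% (63.7 to 72.3) for isoform 7, against 41.9% of the list, and in 52.3% (48.3 to 56.3) for isoform 1, against 41.7%. When sites touching across libraries were merged, 812 regions resulted, of which 24.3% (21.4 to 27.4) were found in all 4 FMR1 libraries, against 9.13% of 237434 regions in the series. That share was 44.3% in KMT2D and 40.7% in KMT2B, but 20.5% in SETD1A, 12.3% in SETD1B, 10.5% in KMT2A and 2.61% in KMT2C, where 77 of 115 regions belonged to 1 library. The spans were chosen with site numbers in view, and KMT2D and KMT2B sites were crowded and wide. The part of this in the overlaps and in the shares of regions was not tested. Regions that held sites of I304N iso7 and I304N iso1 but of no wild-type library numbered 54, 6.65%, against 8.31% in the series. The converse, sites of both wild types but of no I304N library, numbered 20, 2.46%, against 1.89%. Sites of all 6 libraries met in 8 regions, 7 in KMT2D and 1 in KMT2B, from 36218346 to 36218424. This was 0.985% (0.426 to 1.93), an interval that includes the 0.607% of the series. The widest of those in KMT2D, from 49431899 to 49432269, was 371 nt long.

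Over the 6 transcripts together, sites were wider in I304N than in the wild type, but not in each of them. The median width was 30 nt for I304N iso7 and 28 nt for I304N iso1, against 24 nt in each wild-type library, while over the whole lists the medians were 24 and 23 nt with I304N and 21 and 24 nt in wt iso7 and wt iso1. Sites of 60 nt or more made up 16.0% (12.9 to 19.6) of I304N iso7 sites and 11.3% (8.92 to 14.1) of I304N iso1 sites in the 6 transcripts, and 6.49% (4.54 to 8.95) and 6.60% (4.56 to 9.19) in wt iso7 and wt iso1. In the whole lists these shares were 4.90%, 4.85%, 1.51% and 6.35%. KMT2D and KMT2B held most wide sites. KMT2B had a median of 36 nt in I304N iso7, 34 nt in I304N iso1, 30 nt in wt iso7 and 29 nt in wt iso1, whereas KMT2C lay between 18 and 21 nt in these libraries. KMT2A had medians of 22 nt in I304N iso7 and 23 nt in wt iso7, and of 24 nt in both I304N iso1 and wt iso1, and SETD1B had 26 nt in both isoform 1 libraries. The part of the differing numbers of sites per transcript in the pooled medians was not tested. FXR2 sites had a median of 21 nt and FXR1 sites of 19 nt.

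**Figure D5:**
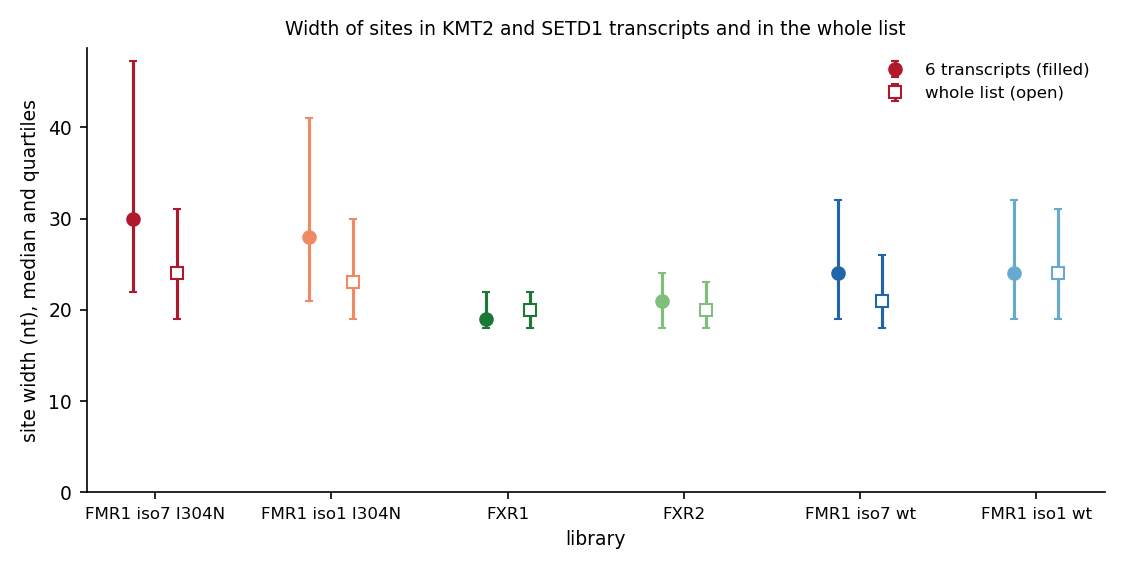
Median width of sites with quartiles (y axis, nt) for each library (x axis), in the 6 transcripts (filled) and in the whole list (open). Both I304N libraries are wider in the 6 transcripts, at 30 and 28 nt, than over their lists, at 24 and 23 nt.

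Few of the sites carried the authors' repeat mark. The share was 2.71% (1.45 to 4.59) in I304N iso7, against 3.48% of its list. In I304N iso1 it was 3.88% (2.50 to 5.71), against 3.03%, and both intervals included the share of the list. FXR1 had 0 of 13 (up to 24.7%), against 6.11%, too few sites to compare. Intervals below the share of the list were found in FXR2, with 0 of 152 (up to 2.40%) against 3.91%. The same held for wt iso7, at 1.15% (0.42 to 2.48) against 4.51%, and wt iso1, at 1.24% (0.46 to 2.67) against 5.35%. KMT2C and KMT2D had no marked site in any library. In SETD1B the mark was carried by 7 of its 49 sites in I304N iso7, 11 of 66 in I304N iso1, 6 of 50 in wt iso7 and 3 of 17 in wt iso1.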

How the data were processed

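The data were 6 deposited lists of PAR-CLIP sites, 1 per protein, each line giving chromosome, start, end, name, score and strand. The deposited score is a flag, 1000 outside repeats and 0 in a repeat, per the file headers. Bowtie 0.12.7 and hg19 are named in the submitters' processing notes; the site caller and its thresholds are not stated there. The labels' protocols give RNase T1, which cuts after G, so site ends and widths can follow base composition. The lists hold no read number, so every value counts sites, and the number of sites depends on depth and caller. Lists held 88644 (I304N isoform 7), 132219 (I304N isoform 1), 9017 (FXR1), 34521 (FXR2), 78495 (wild-type isoform 7) and 121903 sites (wild-type isoform 1).

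Counts were scaled to 100000 sites per list. Intervals at 95% were exact Poisson, Clopper-Pearson or conditional ones (SciPy 1.17.1, pandas 2.3.3, Python 3.11.15). A count of 0 was replaced by 3 sites for calls and for the fold values of SETD1A and SETD1B in FXR1. No test was run, since each group is 1 library. The window calls and intervals were tested on simulated data. Transcript lengths and letters came from GENCODE 29 (GRCh38), whose coordinates were not used; the other COMPASS genes planned were not analysed here for want of names on the files' build. All 6 members are named, and by rule the 3 runs per member with most sites. The members and lists were chosen with earlier results of these data known. Alternatives changed what counts as a site, the scaling, the windows, the overlap and the joining gap.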

Additional observations from a re-analysis of the deposited data

Results flagged for a closer look

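The I304N ratios lay on opposite sides of 1 in the 2 isoforms for 2 transcripts, and the isoform ratios did so for 1. SETD1B had a ratio of I304N over wild type of 0.868 in isoform 7, with an interval of 0.57 to 1.31, and 3.58 in isoform 1, with a wild-type isoform 1 count of 17 sites against 49 to 66 in the other FMR1 libraries. KMT2D had ratios of 0.922 in isoform 7 and 1.16 in isoform 1, both with intervals that include 1. With median-of-ratios scaling the isoform 7 ratios were 1.07 for SETD1B and 1.13 for KMT2D, so that both lay above 1 in both isoforms. KMT2A had an isoform 7 over isoform 1 ratio of 0.505 with I304N and 1.11 in the wild type, where the interval of the second includes 1. With 1 library per form these differences between isoforms or forms were not tested.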

How the results depend on the processing

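No paired analysis was possible because each group is 1 library and no replicate could be left out. Of 54 ratios under 6 alternatives, 302 of 324 values stayed within the counting interval of the reported ratio, 22 lay outside it, and 24 changed their side of the 2-fold limit; no ratio past 2-fold changed direction, while several ratios nearer 1 moved to its other side. Transcripts at least 2-fold lower with I304N in isoform 1 numbered 0 rather than 1 with covered nucleotides, with median-of-ratios scaling and with sites within 50 nt joined, and those higher numbered 0 rather than 2 with joined sites and 3 with covered nucleotides and with median-of-ratios scaling. In isoform 7, 1 rather than 2 were lower with joined sites. For isoform 7 over isoform 1 in the wild type, 4 rather than 2 were higher with covered nucleotides and with median-of-ratios scaling, and 1 with joined sites. With I304N, 2 rather than 1 were lower with covered nucleotides and with repeat-marked sites left out, and 0 with median-of-ratios scaling. FXR2 had 1 rather than 0 transcript higher than wild-type isoform 1 with covered nucleotides, and 5 rather than 2 lower than wild-type isoform 7 with median-of-ratios scaling. Overlap among sites of up to 40 nt was 36.0% for I304N on wild-type isoform 1, 53.9% for I304N on wild-type isoform 7, 43.0% for wild-type isoform 7 on wild-type isoform 1 (52.3% with 50% of the shorter site required), 58.1% for I304N isoform 7 on I304N isoform 1, and 41.7% and 47.0% for FXR2 on wild-type isoforms 7 and 1. Runs numbered 256 with a gap of 100 nt and 46 with 2000 nt. The cause of these changes was not tested. Depth limits FXR1, where 1 site is 11.1 per 100000.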
